A study of Quercus suber with 11 samples.

Results

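The change in the cork transcriptome from April to July was read in innercork, the newly made living cork next to the cork cambium, of cork oak (Quercus suber). The comparison took in 22426 of the 32024 loci in the deposited table, namely every locus whose mean regularized log (rlog) value over the 11 trees of the series reached log2 of 10. Its samples were 8 of those 11 trees, 4 harvested in April and 4 others in July, and the 3 June trees only helped to estimate the spread. All of them were untreated trees growing in a forest, whose first (virgin) cork was sampled, and each gave 1 library of polyadenylated RNA. No tree was harvested in both months. The month, the weather of the harvest and the set of trees therefore cannot be told apart, and the hour of harvest is not given in the sources used here.

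Cork, or phellem, is made by the phellogen, a lateral meristem that divides toward the outside of the trunk. A new cork cell expands, deposits suberin (a polyester of fatty acids, glycerol and ferulic acid) and waxes on its wall, and then dies. Heat shock proteins are chaperones that hold or refold damaged proteins, and many of them are made in larger amounts when temperature rises, while others are always present. Secondary walls, in turn, are laid down by cellulose synthases, xylan-making enzymes and the laccases that polymerise lignin.

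Values are rlog values on the log2 scale, which the authors made with DESeq2. A log2FC is the July mean minus the April mean, given with its standard error (SE), and p-values come from limma with Benjamini-Hochberg (BH) adjustment over all tested loci. A locus was called a DEG at an adjusted p of at most 0.01 with an absolute log2FC above 1, and a looser call used an adjusted p of at most 0.05 alone. Each locus is named by its Arabidopsis homolog, the most similar Arabidopsis protein. The rlog step shrinks loci with few reads, so their log2FC understates the change, and because the values are not per length, the order of loci by rlog and their shares of a linear sum are not an order of transcript levels. Read depth is unknown from these values. In bulk tissue, fewer cells of a type and less RNA per cell cannot be told apart.

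Between April and July, 457 loci were DEGs, 288 higher in July (1.28% of the loci tested) and 169 lower (0.754%). The median log2FC was 1.52 for those that rose and -1.36 for those that fell, against -0.02 for all tested loci. A log2FC over 2 was reached by 66 of the rising loci and one under -2 by 22 of the falling ones. The looser call took in 1416 loci higher in July (6.31%) and 1285 lower (5.73%). Groups did not overlap, every July tree lying on one side of every April tree, for 1950 loci that were higher (8.70%) and 1968 that were lower (8.78%). Of the DEGs, 63.0% were higher in July. That share was 47.3% when April tree 2 was left out, with 460 DEGs higher and 513 lower, and 49.1% when limma weighted the trees by their fit.

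Summed over all loci of an Arabidopsis homolog, 345 of 12324 homologs were DEGs, 219 higher in July (1.78% of those tested) and 126 lower (1.02%). The DEG loci stood for 413 homologs. Of these, 252 also passed as a sum and 161 did not. A further 93 homologs passed only as a sum.

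**Figure D1:**
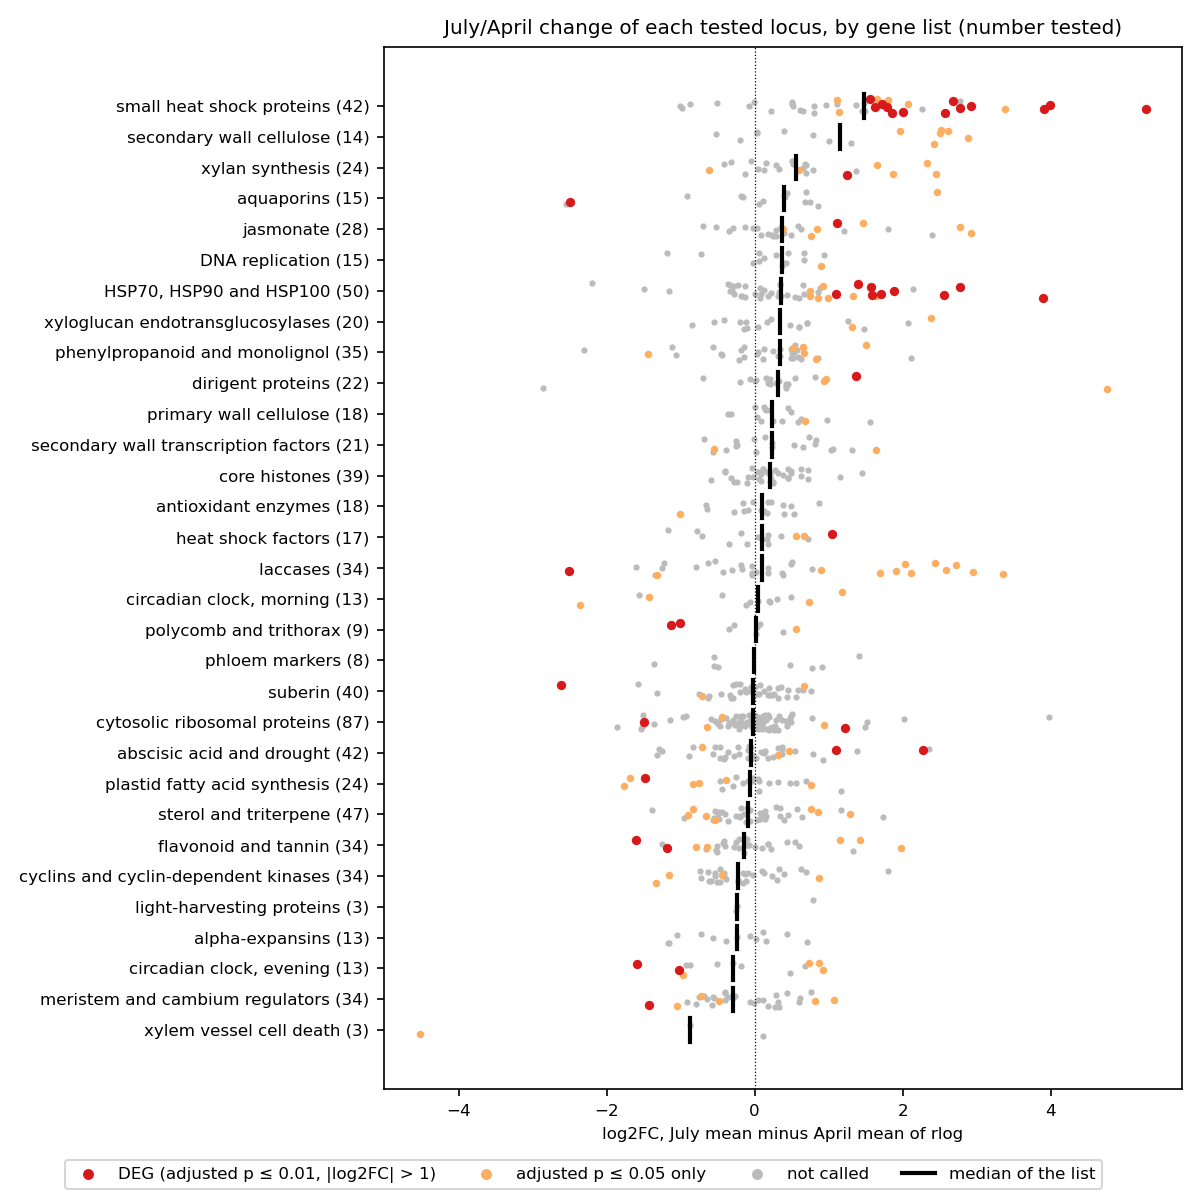
Each point is 1 tested locus, placed by its July minus April log2FC on the horizontal axis, with 1 row for each of 31 gene lists and the number of tested loci in brackets; colour gives the call and the black bar the median of the list. Small heat shock proteins have the highest median, 1.48, followed by secondary wall cellulose at 1.15 with no DEG, while most other lists have medians within 0.4 of 0.

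Heat shock proteins rose in July, the small ones with the highest median of the 31 lists. Of 42 tested small heat shock protein loci, 13 were DEGs higher in July and none was lower, and 36 had a positive log2FC. Their median was 1.48. The looser call took in 19, all higher. The number of DEGs was 8 when April tree 1, April tree 4 or July tree 2 was left out, and 15 without July tree 4. All 60 loci of the list, tested or not, together made up 0.0433 to 0.110% of the summed linear values in the April trees. In the July trees they made up 0.337 to 0.398%, with no overlap.

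The largest rise of any DEG was in an HSP17.6C homolog (AT1G53540, LOC112024666), a cytosolic small heat shock protein. Its rlog was 3.56, 5.36, 5.61 and 4.21 in April trees 1 to 4 and 9.90, 9.79, 9.53 and 10.65 in July trees 1 to 4. Every July tree thus stood far above the highest April tree, and the log2FC was 5.28 (SE 0.77, limma BH adjusted p = 0.00322). In 4 of 11 refits with 1 tree removed the call was lost, and the log2FC stayed between 4.91 and 5.59. The member with the highest rlog, a further HSP17.6C homolog (LOC112002958), stood at 14.08, 15.19, 13.57 and 13.21 in April and at 16.65, 16.97, 16.66 and 16.86 in July. April tree 2 was the highest April tree, and the log2FC was 2.77 (SE 0.36, limma BH adjusted p = 0.00191). This locus held 66.7 to 85.9% of the linear sum of the list in the 11 trees. Without it, the share of the other small heat shock proteins still went from 0.0142 to 0.0182% in April to 0.0482 to 0.0593% in July.

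Small heat shock proteins of several compartments were among the DEGs. HSP22 (AT4G10250, LOC112016302), of the endoplasmic reticulum, was near the bottom of the tested range in April, at 3.71, 4.37, 3.64 and 4.47, and at 8.89, 8.32, 7.78 and 7.16 in July (log2FC 3.99, SE 0.37, limma BH adjusted p = 0.000525). HSP26.5 (AT1G52560, LOC112036142) went from 5.73, 5.29, 6.10 and 5.02 to 9.59, 9.07, 10.02 and 9.08 (log2FC 3.91, SE 0.29, limma BH adjusted p = 0.00022). In both loci the groups were separated by more than the range within either month. HSP21 (AT4G27670, LOC112008682), of the chloroplast, stood between 6.61 and 7.96 in the April trees and was tightly grouped in July at 10.21, 10.05, 10.11 and 9.98 (log2FC 2.92, SE 0.28, limma BH adjusted p = 0.000525). Its second copy, LOC112034214, also rose (log2FC 2.68, SE 0.23, limma BH adjusted p = 0.000393), as did the mitochondrial HSP23.6 (AT4G25200, LOC112009002, log2FC 1.56). HSP17.4-CIII (AT1G54050, LOC112004839) rose by 2.01 (SE 0.26, limma BH adjusted p = 0.00179).

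The cytosolic families had many copies, and the copies did not all move. HSP17.8 (AT1G07400) had 18 tested loci with log2FC values from -0.98 to 3.39, of which 3 were DEGs and 8 passed the looser call, and HSP17.6C had 10 from -1.01 to 5.28, of which 3 were DEGs. The highest HSP17.8 copy, LOC111986244, was at 8.51, 9.53, 8.32 and 8.11 in April and 10.90, 10.85, 10.60 and 9.55 in July. There July tree 4 lay just above April tree 2, and the call (log2FC 1.86, SE 0.35, limma BH adjusted p = 0.00937) was lost in 9 of the 11 fits without 1 tree. Reads of near-identical copies could be shared out between them by the counting, so the split within these families is uncertain.

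**Figure D2:**
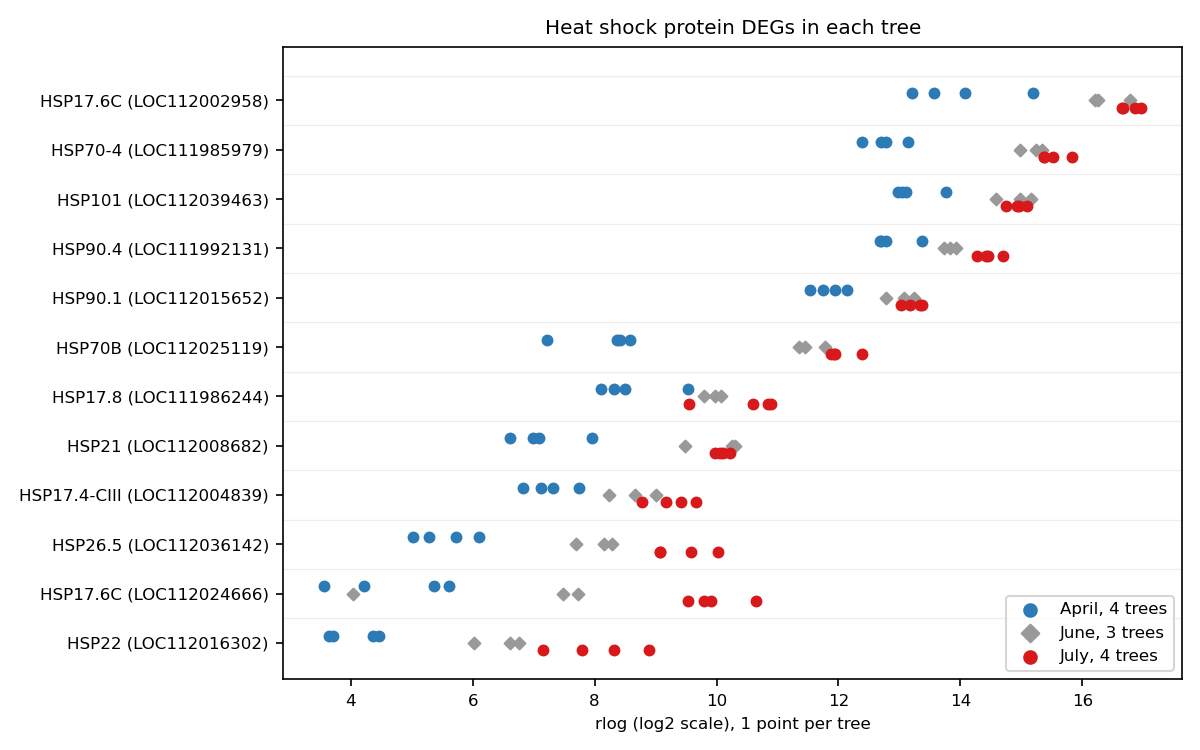
Each point is 1 tree's rlog (log2 scale, horizontal axis) for the 12 heat shock protein DEGs that were named from the lists, with April, June and July trees in blue, grey and red. In every row the 4 July trees lie to the right of the 4 April trees; in HSP17.8 (LOC111986244) the lowest July tree, at 9.55, nearly meets the highest April tree, at 9.53.

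Larger chaperones followed. Of 50 tested loci of the HSP70, HSP90 and HSP100 families, 9 were DEGs and 16 passed the looser call, all higher in July, with a median log2FC of 0.35. HSP70-4 (AT3G12580, LOC111985979), a cytosolic stress-induced HSP70, had 12.78, 13.13, 12.69 and 12.39 in April and 15.84, 15.52, 15.38 and 15.37 in July. This gave a log2FC of 2.78 with an SE of only 0.17 (limma BH adjusted p = 9.05e-05). The locus was the only DEG of 10 tested HSP70-4 copies, of which 8 were higher and 2 passed the looser call. HSP70B (AT1G16030, LOC112025119) had 8.42, 8.58, 7.22 and 8.36 in April and 12.38, 11.88, 11.95 and 11.93 in July (log2FC 3.89, SE 0.27, limma BH adjusted p = 0.000157). Both tested HSP70B copies were DEGs, and as a sum HSP70B had the highest log2FC of all homolog DEGs, 3.84 (SE 0.25).

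HSP101 (AT1G74310, LOC112039463), the disaggregase needed for acquired heat tolerance in Arabidopsis, rose from 12.98, 13.76, 13.04 and 13.11 to 14.75, 15.09, 14.96 and 14.93 (log2FC 1.71, SE 0.19, limma BH adjusted p = 0.000912). The HSP90.4 homolog LOC111992131 rose by 1.58 (SE 0.16, limma BH adjusted p = 0.000692). It was the only one of 3 tested HSP90.4 copies that was higher, and the lowest log2FC among them was -1.16. Of the copies of HSP90.1 (AT5G52640), the heat-inducible HSP90, 3 of 4 were DEGs with the fourth passing the looser call. HSC70-1 (AT5G02500), the HSP70 that Arabidopsis makes at normal temperature, gave another picture. Of its 7 tested loci 2 were higher in July and none was called, with log2FC values from -2.20 to 0.19. Among 17 heat shock factors, a family that includes the transcription factors that switch these genes on, 1 was a DEG. HSFA1D (AT1G32330, LOC112034707) stood at 9.75, 9.92, 9.81 and 9.86 in April and 11.05, 10.86, 11.02 and 10.61 in July (log2FC 1.05, SE 0.11, limma BH adjusted p = 0.000835), and was lost in 1 of the 11 fits without 1 tree. That fit, without July tree 1, left a log2FC of 0.99. Both HSFA6B copies passed the looser call (0.67 and 0.56).

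The next 3 homologs lie outside the lists and were picked after their values were seen. Both tested homologs of the DNAJ protein AT2G20560, a co-chaperone of HSP70, were DEGs (LOC112026069, log2FC 1.74, and LOC112013269, log2FC 1.11). BAG6 (AT2G46240, LOC112022954), a stress-induced cochaperone, went from 11.26, 10.11, 11.04 and 10.75 to 13.39, 13.29, 12.45 and 12.06 (log2FC 2.01, SE 0.33, limma BH adjusted p = 0.00539). It was the DEG among 3 BAG6 copies, of which LOC112025031 passed the looser call (log2FC 1.43) and LOC112010934 neither (log2FC 1.72, limma BH adjusted p = 0.160). Nucleoredoxin 1 (NRX1, AT1G60420), which repairs oxidised antioxidant enzymes in Arabidopsis, had 6 tested copies. All were higher in July and 5 were DEGs, the most DEGs of any homolog, with log2FC values from 1.78 to 3.44 among the called copies.

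Among the 8 largest rises by the naming rule, 4 were outside the heat shock lists. A homolog of SBH2 (AT1G14290, LOC112001532), which hydroxylates the long-chain base of sphingolipids, had a log2FC of 4.45 (SE 0.81, limma BH adjusted p = 0.00807). In April tree 1 stood at 9.33 and the other trees at 5.66, 5.02 and 5.15, against 10.00, 10.96, 10.77 and 11.24 in July. The groups did not overlap, but the call was lost in 10 of the 11 fits without 1 tree (log2FC 4.03 to 5.47). Copies of the same step went the other way without reaching the DEG threshold. A second SBH2 homolog, LOC112031613, was at 6.69, 8.19, 7.56 and 7.72 in April and 6.83, 3.94, 3.53 and 3.65 in July (log2FC -3.05, SE 0.65, limma BH adjusted p = 0.0161). The SBH1 homolog (AT1G69640, LOC111993167) was at 7.57, 9.25, 8.64 and 8.61 and then 7.64, 3.17, 3.20 and 3.53 (log2FC -4.13, SE 0.88, limma BH adjusted p = 0.0156). In both, July tree 1 stayed within the April range, so the groups overlapped. The remaining tested SBH2 homolog, LOC112033980, hardly differed (log2FC 0.03, SE 0.17).

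Galactinol synthase 1 (GolS1, AT2G47180, LOC112028689), which makes the donor for raffinose sugars and is stress-induced in Arabidopsis, stood at 7.88, 6.80, 7.73 and 7.62 in April and 10.64, 11.77, 11.70 and 10.90 in July. Its log2FC was 3.75 (SE 0.30, limma BH adjusted p = 0.000306). A raffinose synthase family homolog, DIN10 (AT5G20250, LOC112039055), named after its values were seen, rose with it, from 9.59, 10.10, 9.38 and 9.58 to 12.42, 11.08, 12.28 and 11.85 (log2FC 2.25, SE 0.30, limma BH adjusted p = 0.00211). A DREB-type transcription factor homolog (AT5G52020, LOC112036778) was at 3.79, 3.84, 3.72 and 3.70 in April and 8.01, 7.48, 7.40 and 7.01 in July (log2FC 3.71, SE 0.22, limma BH adjusted p = 7.57e-05), and all 5 of its tested copies were higher, 2 of them as DEGs. ERF109 (AT4G34410, LOC112008191), a redox-responsive transcription factor, rose by 3.64 (SE 0.65, limma BH adjusted p = 0.00745). There July tree 4 reached 11.93 and the other July trees 8.69 to 9.42, and without that tree the log2FC was 2.91. Its call was lost in 9 of the 11 fits without 1 tree.

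The secondary wall cellulose and xylan lists had the next highest medians, with a wide spread between trees. Several of their members, and several laccases, had been singled out by the study from these same trees. The counts below are therefore not independent evidence of a direction. In the list of secondary wall cellulose genes 12 of 14 tested loci had a positive log2FC, and the median was 1.15. That median was 0.04 when the 10 loci below the minimum level were let in, and those of the small heat shock proteins and of the HSP70, HSP90 and HSP100 families were then 0.80 and 0.06. None of the 14 was a DEG (9 were higher and 1 lower at an unadjusted p under 0.05), while 6 passed the looser call, all higher. Of 24 xylan synthesis loci 1 was a DEG, and 6 were higher and 1 lower at the looser call (median 0.56). Laccases had 34 tested loci with a median of 0.10, of which 10 were higher and 2 lower at the looser call and 1 was a DEG that fell. The study, which ran DESeq2 on read counts, called several loci of each of these lists higher in July than in April at the same DEG thresholds. The low DEG counts given here therefore hold for limma on rlog values.

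CESA8 (AT4G18780, LOC112002106), a subunit of the secondary wall cellulose synthase, was at 9.69, 7.90, 7.91 and 9.13 in April and 11.62, 10.90, 12.75 and 9.82 in July (log2FC 2.61, SE 0.61, limma BH adjusted p = 0.0223). July tree 3 was the highest, and July tree 4 barely cleared April tree 1. The partner subunit CESA7 (AT5G17420, LOC112026131) was at 10.12, 8.64, 8.28 and 9.48 and then 11.92, 11.33, 12.98 and 10.01, again with July tree 3 highest, and with July tree 4 below April tree 1, so that its groups overlapped (log2FC 2.43, SE 0.60, limma BH adjusted p = 0.0277). The third subunit, CESA4 (AT5G44030), passed the looser call in the copies LOC112023957 (2.51) and LOC111984736 (2.89), as did the fasciclin-like protein FLA11 (AT5G03170, LOC112031083, 2.52) and COBL4 (AT5G15630, LOC112004749, 1.96). These genes and the laccases that follow were named after their values were seen. A further COBL4 copy, LOC112009789, had the highest rlog of the cellulose list and was named by the naming rule. That copy was not called (log2FC 1.00, SE 0.43, limma BH adjusted p = 0.152). LAC17 (AT5G60020, LOC112025438), a lignin laccase of Arabidopsis stems, was at 9.97, 8.59, 7.97 and 9.08 and then 11.82, 11.79, 13.37 and 10.41 (log2FC 2.95, SE 0.58, limma BH adjusted p = 0.0112). LAC4 (AT2G38080, LOC112018093), its partner in stem lignin, had a log2FC of 2.58 (SE 0.60, limma BH adjusted p = 0.0219). As a sum over its loci LAC17 did pass as a homolog DEG, with a log2FC of 2.65 (SE 0.52, limma BH adjusted p = 0.00668), and so did LAC2 with 2.44.

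The xylan DEG was IRX15L (AT5G67210, LOC111995756), needed for normal xylan length, which rose from 11.63, 12.33, 11.72 and 12.36 to 13.12, 13.58, 13.64 and 12.71 (log2FC 1.25, SE 0.23, limma BH adjusted p = 0.00884). That call was lost in 9 of the 11 fits without 1 tree. GAUT12 (AT5G54690, LOC112027387, 2.33), GUX1 (AT3G18660, LOC112008671, 2.45) and IRX10 (AT1G27440, LOC111985053, 1.66), which prime, decorate and extend xylan, passed the looser call. The laccase DEG was LAC7 (AT3G09220, LOC111988990), which fell from 12.06, 13.32, 10.93 and 12.28 to 8.83, 10.32, 9.76 and 9.66 (log2FC -2.50, SE 0.46, limma BH adjusted p = 0.00822), a call lost in 9 of the 11 fits without 1 tree. NST1 (AT2G46770, LOC112008346), a master switch of fibre secondary walls in Arabidopsis, was the only one of 21 secondary wall transcription factors called higher even at the looser threshold, at 8.04, 7.47, 7.18 and 7.53 in April and 9.58, 8.70, 10.28 and 8.21 in July (log2FC 1.64, SE 0.39, limma BH adjusted p = 0.024). VNI2 (AT5G13180, LOC111994497) was called lower at that threshold (log2FC -0.55, SE 0.15, limma BH adjusted p = 0.0448).

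The 22 loci of the cellulose, xylan and laccase lists that were called higher at the looser threshold shared an order of trees. July tree 3 was the highest July tree in 18 of them and July tree 4 the lowest in 19. Their median difference from the April mean was 0.72, -0.36, -0.67 and 0.30 in April trees 1 to 4 and 2.60, 2.10, 3.67 and 0.94 in July trees 1 to 4. These loci were chosen by the same values, so the order is a description. Without July tree 4, 4 cellulose, 4 xylan and 5 laccase loci were DEGs higher in July. Without July tree 1, the looser call took in 0, 2 and 2 loci of the same lists, and without April tree 3 it took in 0, 2 and 3. The phloem gene SEOR1 (AT3G01680), which forms filaments in sieve elements, also differed between the July trees. Its main copy LOC111994151 was at 13.29, 13.50, 12.48 and 12.11 in April and 14.49, 13.88, 14.23 and 12.40 in July, with July tree 4 lowest (log2FC 0.91, limma BH adjusted p = 0.205). None of 8 tested phloem loci was called (2 were higher and none lower at an unadjusted p under 0.05). The summed share of all 19 loci of the list, tested or not, was 0.0162 to 0.0392% in April and 0.0155 to 0.0788% in July. The vessel protease XCP1 (AT4G35350, LOC112002930) was at 7.85 in April tree 2, 7.70 in April tree 3 and 7.82 in July tree 1, and between 2.88 and 3.55 in the other April and July trees. The vessel nuclease BFN1 (AT1G11190, LOC112034495) was at 8.87, 9.88, 2.39 and 6.62 in April and between 2.20 and 2.65 in July (log2FC -4.52, limma BH adjusted p = 0.0447). The part of phloem or xylem cells in the wall gene values was not tested.

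**Figure D3:**
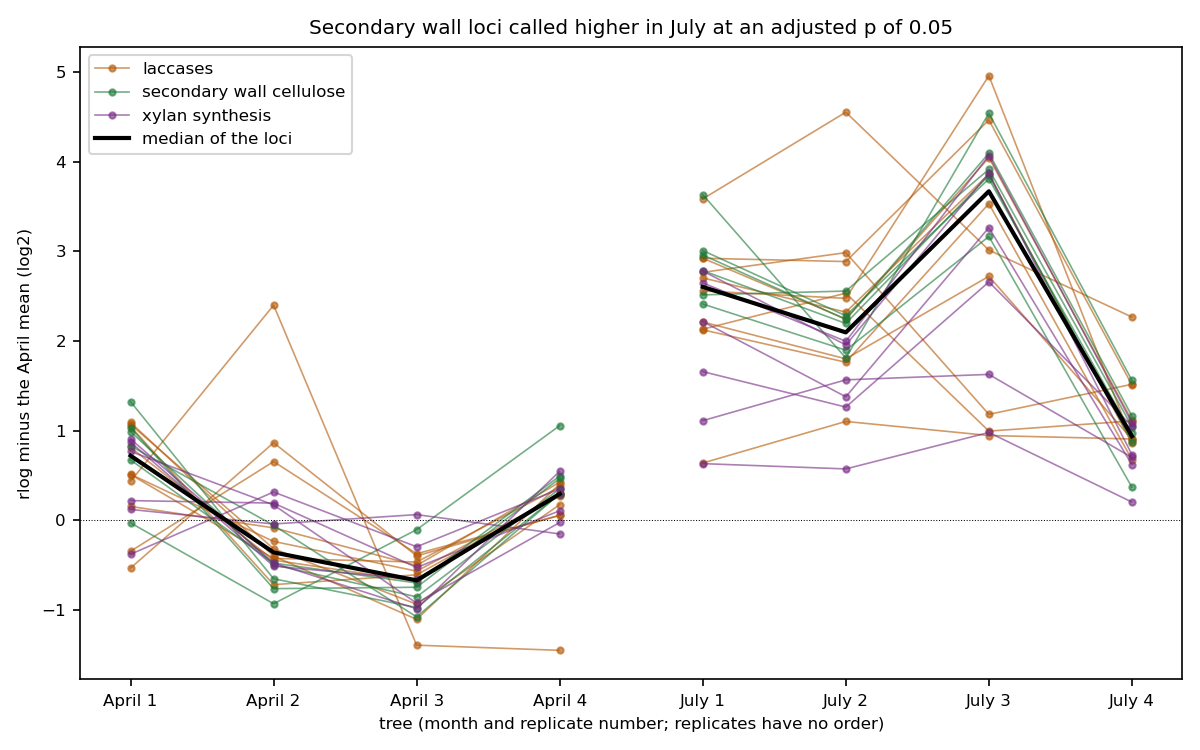
The 22 secondary wall cellulose, xylan and laccase loci called higher in July at an adjusted p of 0.05, each as a thin line of rlog minus its April mean (log2 scale) in the 4 April and 4 July trees, with the median as a thick line; replicates have no order and the lines only join values of 1 locus. The median is highest in July tree 3, at 3.67, and lowest among the July trees in July tree 4, at 0.94.

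Of 35 phenylpropanoid and monolignol loci, which make the lignin precursors, none was a DEG (12 were higher and 2 lower at an unadjusted p under 0.05), 5 were higher and 1 lower at the looser call, and the median was 0.35. Leaving out 1 tree gave 1 to 11 higher at the looser call, 11 without April tree 2, with medians of 0.15 to 0.49. The 5 included 3 copies of COMT1 (AT5G54160, 0.52 to 0.67) and 4CL2 (AT3G21240, LOC112001847, 0.83). The locus of the list with the highest rlog, the CCoAOMT1 homolog LOC111992262, had a log2FC of 0.11 (SE 0.20). Dirigent proteins, which steer the coupling of phenolic radicals, had 1 DEG among 22 loci, LOC112016146 (AT1G58170), which rose by 1.36 (SE 0.21, limma BH adjusted p = 0.00406) and was lost in 5 of the 11 fits without 1 tree. Another dirigent homolog, LOC112026141 (AT2G21100), stood at 3.72 to 4.28 in April and at 4.53, 9.44, 10.52 and 10.29 in July. July tree 1 stayed almost at the April level, and the log2FC of 4.76 (SE 1.08, limma BH adjusted p = 0.0203) passed only the looser call.

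No locus of the primary wall cellulose (18 tested), alpha-expansin (13) or xyloglucan endotransglucosylase (20) lists was a DEG, with 4, 1 and 5 loci higher and 0, 3 and 1 lower at an unadjusted p under 0.05. Their medians were 0.23, -0.24 and 0.35. The looser call took in CESA1 (AT4G32410, LOC112005131, 0.68) of the first list and XTH27 and XTH22 (1.32 and 2.38) of the last, all 3 with overlapping groups. The expansin with the highest rlog, EXPA8 (AT2G40610, LOC112019461), which loosens growing walls, had 13.70, 14.60, 14.26 and 14.05 in April and 14.43, 15.01, 15.05 and 14.96 in July (log2FC 0.71, SE 0.21, limma BH adjusted p = 0.055).

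Of 40 tested suberin biosynthesis loci 20 had a positive log2FC, and the median was -0.02. The summed share of all 60 loci of the list, tested or not, was 3.66 to 5.14% in April and 3.48 to 4.37% in July. Its DEG was a homolog of the transcription factor MYB9 (AT5G16770, LOC112034724), which fell from 11.54, 11.96, 10.33 and 11.42 to 7.54, 8.74, 9.56 and 8.98 (log2FC -2.61, SE 0.44, limma BH adjusted p = 0.00643). That call was lost in 8 of the 11 fits without 1 tree. GELP96 (AT5G37690, LOC111989476), a lipase-like protein linked to suberin polymerisation, passed the looser call in the other direction (0.66). Suberin genes and homologs of birch phellem genes, the phellem markers here, were both taken from the study's supplement. The birch phellem list held 10.6 to 11.9% of the linear sum in every April and July tree. Its 3420 tested loci, of 1144 homologs, gave 55 DEGs higher (1.61%) and 33 lower (0.965%), beside 1.28 and 0.754% of all loci. Leaving out 1 tree gave 31 to 77 higher and 10 to 117 lower, both highest without April tree 2 and lowest without April tree 4. The birch phellogen and phelloderm list had 193 tested loci, of 94 homologs. These loci gave 8 higher (4.15%) and 7 lower (3.63%). When 1 tree was left out they gave 4 to 10 higher and 0 to 6 lower, with 10 and 6 without July tree 4. Of the light-harvesting genes, which mark green tissue, 3 loci passed the minimum and all stood between 3.48 and 5.84.

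Plastid fatty acid synthesis, which feeds suberin and wax, had 1 DEG among 24 loci. FATB (AT1G08510, LOC112028149), the thioesterase that releases saturated fatty acids, fell from 15.24, 15.24, 15.08 and 15.28 to 13.20, 13.99, 13.69 and 14.00 (log2FC -1.49, SE 0.19, limma BH adjusted p = 0.00168). The groups were widely apart. A further FATB copy, LOC112027571, had the opposite direction at the looser call, from 13.32, 13.84, 13.28 and 13.55 to 13.91, 14.21, 14.21 and 14.73 (log2FC 0.77, SE 0.19, limma BH adjusted p = 0.027). At the looser call 6 loci of the list were lower (25.0%) and 1 higher (4.17%), beside 5.73% and 6.31% among all loci. The lower ones included 2 copies each of the biotin carboxylase CAC2 (-0.84 and -0.75) and the condensing enzyme KASII (-1.76 and -0.39). The carboxyltransferase subunit CAC3 (-1.69) was also among them. Without April tree 1 only 3 of the list were lower. Sterol and triterpene synthesis had no DEG in 47 loci (9 higher and 6 lower at an unadjusted p under 0.05). At the looser call 3 of this list were higher (6.38%) and 4 lower (8.51%), beside 6.31% and 5.73% among all loci. Its locus with the highest rlog, HMGR1 (AT1G76490, LOC112003066), the committed step of the mevalonate pathway, was at 14.62, 14.94, 14.71 and 14.91 and then 15.47, 15.62, 15.54 and 15.99 (log2FC 0.86, SE 0.14, limma BH adjusted p = 0.00566), below the fold threshold.

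Of 34 flavonoid and tannin loci 2 were DEGs, and both fell (5.88%, beside 0.754% of all loci). TT2 (AT5G35550, LOC112011853), the MYB factor that turns on proanthocyanidin synthesis in Arabidopsis seed coats, was at 12.19, 11.93, 12.35 and 12.04 in April and 10.65, 11.03, 10.70 and 11.42 in July (log2FC -1.18, SE 0.18, limma BH adjusted p = 0.00406), a call lost in 6 of the 11 fits without 1 tree. The tannin transporter TT12 (AT3G59030) was lower at the looser call in the copies LOC112006936 (-0.79) and LOC112006937 (-0.64). A flavonoid 3'-hydroxylase homolog (AT5G07990, LOC112028052) fell by 1.61 on the log2 scale, and that call was lost in 9 of the 11 fits without 1 tree, while 3 other copies were higher at the looser call (1.15, 1.42 and 1.97). Over the list the median was -0.15. At the looser call 8.82% of its loci were higher and 11.8% lower, beside 6.31% and 5.73% among all loci.

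Of 34 meristem and cambium regulators 13 had a positive log2FC and the median was -0.30. At the looser call 4 were lower (11.8%), 1 of them a DEG, and 2 higher (5.88%). Among all loci that call took in 5.73% lower and 6.31% higher. The DEG was SHOOT MERISTEMLESS (STM, AT1G62360, LOC111993990), a homeobox gene that keeps stem cells undifferentiated, at 11.17, 11.82, 11.46 and 11.65 in April and 9.20, 10.62, 10.23 and 10.37 in July (log2FC -1.42, SE 0.27, limma BH adjusted p = 0.00968). It sat close to the threshold and was lost in 10 of the 11 fits without 1 tree, with log2FC values from -1.59 to -1.12. Also lower at the looser call were a second STM copy (LOC112032307, -0.49), KNAT1/BP (LOC112015571, -0.73) and AP2 (LOC111995790, -1.05). Higher were ATHB8 (LOC112029705, 0.82), a regulator of vascular cell fate, and an SCL28 copy (LOC111999473, 1.07). The study listed another SCL28 copy among genes upregulated in April. It called that copy a DEG between June and April and not between July and April. Some members of the meristem and jasmonate lists had been picked by the study from these same trees, so these counts are not independent evidence of a direction.

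In the list of polycomb and trithorax genes, which set or counter repressive chromatin, 2 of 9 loci were DEGs, both lower in July. The study had singled out both from these same trees, so they are not independent evidence of a direction. ULTRAPETALA1 (ULT1, AT4G28190, LOC112024131) was at 12.79, 13.18, 12.84 and 12.70 in April and 11.76, 11.82, 11.81 and 11.60 in July (log2FC -1.13, SE 0.11, limma BH adjusted p = 0.000686). CURLY LEAF (CLF, AT2G23380, LOC111988803), a histone methyltransferase, was at 10.33, 9.71, 10.25 and 10.15 and then 9.30, 9.09, 9.23 and 8.77 (log2FC -1.01, SE 0.16, limma BH adjusted p = 0.00491). ULT1 kept its call in all 11 fits without 1 tree, and CLF, just past the fold threshold, lost it in 6. MSI1 (AT5G58230, LOC111998306), a histone-binding subunit, was higher at the looser call (0.56). The median of the 9 loci was 0.01.

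None of 34 cyclin and cyclin-dependent kinase loci, 15 DNA replication loci or 39 core histone loci was a DEG, with 3, 3 and 8 higher and 8, 0 and 1 lower at an unadjusted p under 0.05. Their medians were -0.23, 0.37 and 0.21. At the looser call CYCD6;1 (-1.33), CYCD5;1 (-1.15) and a CDKA;1 copy (-0.45) were lower. A CYCD3;1 locus (0.87) and MCM7 (0.89) were higher, and no histone was called. The study listed a CYCD3;1 locus among genes upregulated in April. It called that locus a DEG between June and April and not between July and April. Of 87 cytosolic ribosomal protein loci, RPS3B (AT5G35530, LOC111998885) rose by 1.22 and RPL27C (AT4G15000, LOC112018876) fell by 1.50 on the log2 scale. Both kept the call in all 11 fits without 1 tree, and the median of the list was -0.03. They were the only DEGs of the list, 1.15% in each direction, beside 1.28% higher and 0.754% lower among all loci. At the looser call 2 of the list were higher and 3 lower. Those shares were below the 6.31% higher and 5.73% lower among all loci, so the list did not stand out.

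Of 28 jasmonate loci 22 had a positive log2FC, with a median of 0.37, and 7 passed the looser call, all higher. The share of the list was 0.0726 to 0.0844% in April and 0.0968 to 0.109% in July, without overlap. MYC2 (AT1G32640, LOC112012448), the central transcription factor of jasmonate responses, was the DEG, between 10.87 and 11.42 in the April trees and at 11.97, 12.18, 12.11 and 12.47 in July (log2FC 1.11, SE 0.19, limma BH adjusted p = 0.00683), and was lost in 8 of the 11 fits without 1 tree. The synthesis enzyme AOS (AT5G42650) had the largest differences. LOC111993945 was at 6.72, 8.12, 10.21 and 7.33 in April and 11.19, 10.90, 10.54 and 11.42 in July (log2FC 2.92, SE 0.60, limma BH adjusted p = 0.0138), and LOC112029846 had a log2FC of 2.78 with July tree 4 at 11.41. LOX3 (1.47), OPR3 (0.85), the receptor COI1 (0.77) and the repressor JAZ1 (0.38) also passed the looser call. Without April tree 1 or without April tree 3 the looser call took in 3 of the list.

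The abscisic acid and drought list had 2 DEGs in 42 loci, both higher in July (4.76%, beside 1.28% of all loci), and a median of -0.05. The phosphatase HAI3 (AT2G29380, LOC112008236), induced by abscisic acid, was at 5.75, 5.51, 4.88 and 5.41 and then 7.25, 7.89, 7.19 and 8.30 (log2FC 2.27, SE 0.35, limma BH adjusted p = 0.00405). The transcription factor ABF3 (AT4G34000, LOC112024391) was at 10.23, 10.52, 10.54 and 10.22 and then 11.67, 11.46, 11.50 and 11.26 (log2FC 1.10, SE 0.12, limma BH adjusted p = 0.000835). ABF3 held in all 11 fits without 1 tree and HAI3 was lost in 4. Among genes named after their values were seen, RGL1 (AT1G66350, LOC112035777), a DELLA repressor of gibberellin responses, rose by 2.92 (SE 0.47, limma BH adjusted p = 0.00499), and GA2OX1 (AT1G78440, LOC112017109), which inactivates gibberellin, fell from 7.23, 6.22, 7.78 and 6.22 to 3.99, 3.85, 4.24 and 4.05 (log2FC -2.83, SE 0.33, limma BH adjusted p = 0.00106). Cytokinin oxidase CKX3 (AT5G56970, LOC112023224) and the auxin transporter WAT1 (AT1G75500, LOC111986130) also fell, with log2FC values of -1.58 and -1.54. Alcohol dehydrogenase ADH1 (AT1G77120) had 2 DEGs among 6 loci, the larger with a log2FC of 2.40 (LOC112025054).

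Clock genes moved in both directions. In the morning list LHY (AT1G01060, LOC112036661) was higher at the looser call, at 11.45, 10.42, 11.48 and 11.10 and then 12.68, 12.31, 12.31 and 11.89 (log2FC 1.18, SE 0.24, limma BH adjusted p = 0.012), and LNK2 (-2.36) and a PRR7 copy (-1.42) were lower. In the evening list TOC1 (AT5G61380, LOC112023030) fell from 9.94, 10.27, 10.20 and 10.20 to 9.38, 9.04, 9.19 and 8.92 (log2FC -1.02, SE 0.14, limma BH adjusted p = 0.00244) and PRR5 (AT5G24470, LOC112004762) by 1.58 on the log2 scale, both lower in every July tree. LUX (0.92), ZTL (0.87) and ELF3 (0.73) were higher at the looser call. Leaving out 1 tree ended the TOC1 call in 4 of 11 fits and the PRR5 call in 9. The part of the hour of harvest in these values was not tested.

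Of 15 aquaporin loci 1 was a DEG, lower in July, and at the looser call 1 was higher and 1 lower (6.67% each). Of 18 antioxidant enzyme loci 1 was lower at the looser call (5.56%) and none higher. Among all loci that call took in 6.31% higher and 5.73% lower. The tonoplast aquaporin TIP4;1 (AT2G25810, LOC112034950) fell from 8.83, 8.75, 9.49 and 9.60 to 7.31, 6.45, 6.49 and 6.45 (log2FC -2.49, SE 0.45, limma BH adjusted p = 0.0079), a call lost in 8 of the 11 fits without 1 tree. The plasma membrane aquaporin PIP1;4 (AT4G00430, LOC111983155) was higher at the looser call, at 8.09, 6.82, 6.93 and 7.76 and then 9.82, 9.28, 11.46 and 8.89, with July tree 3 highest and July tree 4 lowest (log2FC 2.46, SE 0.55, limma BH adjusted p = 0.0192). None of 18 antioxidant enzyme loci was a DEG (2 were higher and 3 lower at an unadjusted p under 0.05), and the superoxide dismutase CSD3 (LOC112003070, -1.01) was lower at the looser call.

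**Figure D4:**
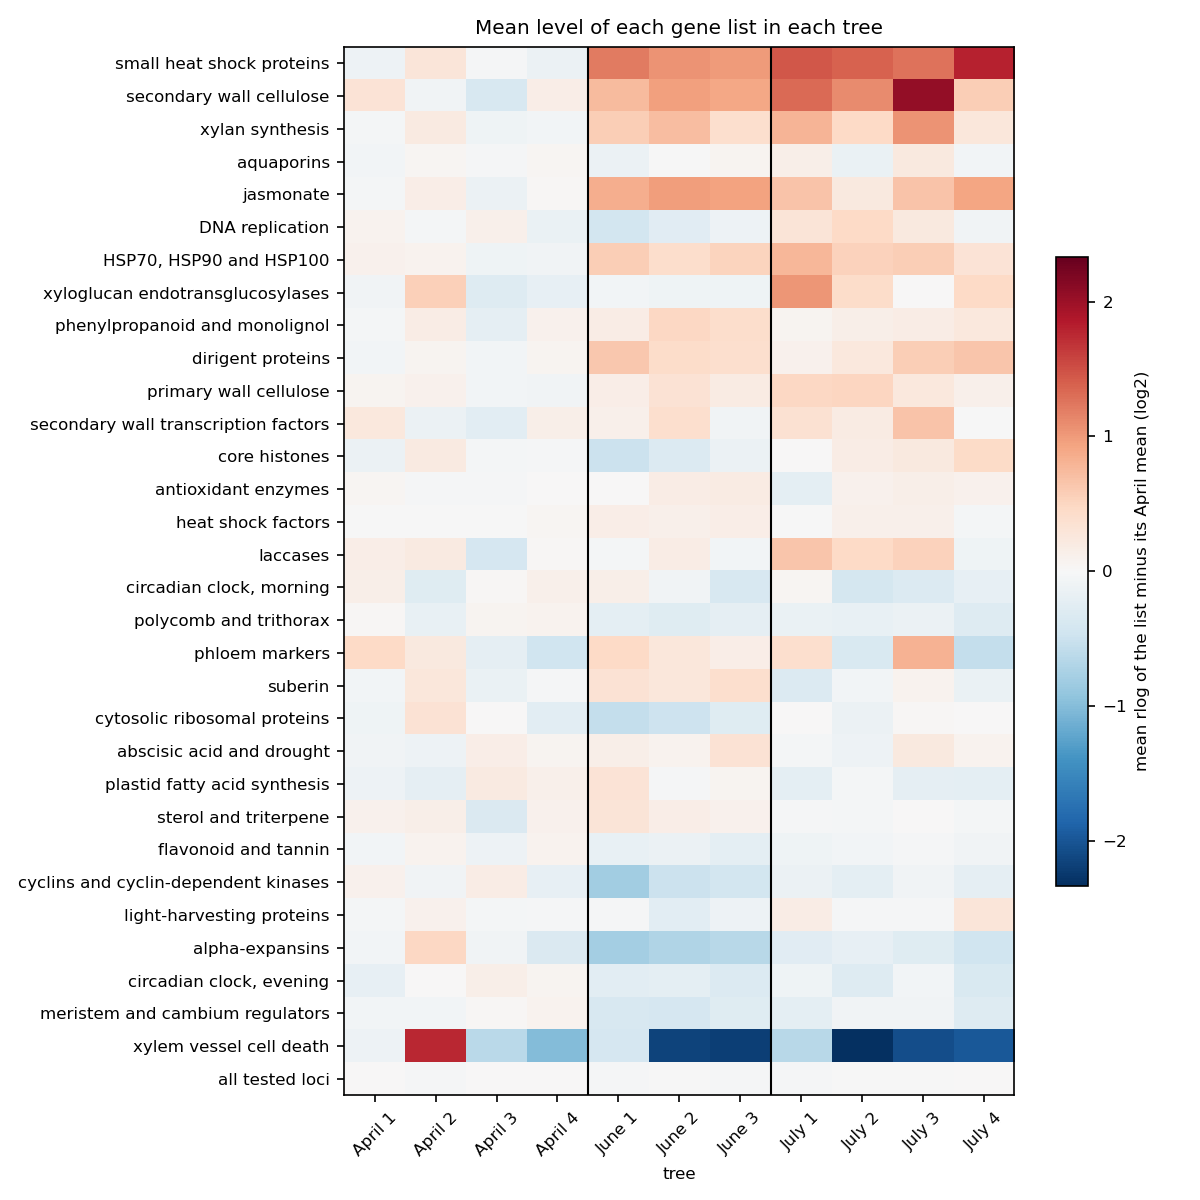
Mean rlog of each gene list in each of the 11 trees, minus the mean of the list over the 4 April trees (colour, log2 scale), with trees in columns and the median-ordered lists in rows. Small heat shock proteins are positive in all June and July trees, secondary wall cellulose is highest in July tree 3 and lowest of the July trees in July tree 4, and the xylem vessel row rests on 3 loci.

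Falls were named by the same rule, from DEGs whose groups did not overlap. Among them a kinesin motor homolog (AT3G20150, LOC111993237) had the largest fall, with a log2FC of -4.59 (SE 0.85, limma BH adjusted p = 0.00899), but July tree 4 stood at 7.65 when the other July trees were at 3.39 to 3.44. It was lost in 10 of the 11 fits without 1 tree, and without July tree 4 the log2FC was -5.64. CYP714A1 (AT5G24910, LOC112004588), a cytochrome P450 that inactivates gibberellin in Arabidopsis, fell from 7.60, 8.95, 7.85 and 8.66 to 4.13, 4.56, 3.74 and 5.18 (log2FC -3.86, SE 0.45, limma BH adjusted p = 0.00107). Its groups were far apart, and the call was kept in all 11 fits without 1 tree. A CYP82G1 homolog (AT3G25180, LOC111990452), a P450 that makes volatile homoterpenes in Arabidopsis, fell to 4.96, 5.25 and 5.17 in July trees 1 to 3 and to 7.74 in July tree 4, from 8.75 to 10.33 in April, and was lost in 6 of these fits.

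The GDSL lipase-type homolog of AT5G45920 (LOC112022595) fell from 8.96, 8.86, 8.53 and 8.34 to 5.93, 5.15, 5.75 and 5.87 (log2FC -3.00, SE 0.33, limma BH adjusted p = 0.000869). An oxygenase homolog, SRG1 (AT1G17020, LOC112039389), fell by 3.06 on the log2 scale, and peroxidase PRX52 (AT5G05340, LOC111985946), a lignin peroxidase in Arabidopsis, from 12.87, 12.85, 11.28 and 12.73 to 9.75, 8.93, 10.38 and 9.12 (log2FC -2.89, SE 0.44, limma BH adjusted p = 0.0038). April tree 3 and July tree 3 approached each other there without crossing. The call was lost in 5 of the 11 fits without 1 tree for SRG1 and in 4 for PRX52. The remaining named falls were LOC112041031 (AT3G57810, -3.96) and a receptor-like kinase homolog, LOC112004379 (AT5G24080, -3.15), lost in 1 and 6 of these fits.

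Copies of the same homolog did not always move together. Among 4439 homologs with 2 or more tested loci, 238 had at least 1 DEG and 22 had 2 or more. In 16 of the 22 all DEGs were higher, in 1 (AT2G23910) all were lower, and in 5 (AT4G02340, AT5G24080, AT4G27310, AT2G34930 and AT2G26710) DEGs went both ways. Besides NRX1, 3 DEGs with the same direction were found for HSP90.1, HSP17.6C and HSP17.8.

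The trees followed the change to different degrees. Each tree was placed on the loci called at the looser threshold in a fit without it, on a line from the April mean (0) to the July mean (1) of the remaining trees. April trees 1 to 4 lay at 0.062, 0.564, 0.229 and 0.077 and July trees 1 to 4 at 0.931, 0.860, 0.867 and 0.662. All July trees were thus above all April trees, with April tree 2 and July tree 4 nearest to each other. On single loci, April tree 2 lay on the July side of the midpoint in 56.5% and April trees 1, 3 and 4 in 7.28, 18.4 and 6.18%. July tree 4 lay on the July side in 62.4% and the other July trees in 87.6 to 88.8%. The number of loci used differed widely, from 437 to 3837, and was 3837 in the fit without April tree 2 and 2009 in the fit without July tree 4. On loci called from the April and July trees alone, the June trees lay at 0.856, 0.797 and 0.828. At the DEG threshold, in the fits without the placed tree, July tree 4 did not stand apart. July trees 1, 3 and 4 lay there at 0.704, 0.698 and 0.684 and April trees 1 to 3 at 0.242, 0.498 and 0.411. These positions used 24 to 582 loci. April tree 4 and July tree 2, with 17 and 13 such loci, were not placed.

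April tree 2 and July tree 4 stood apart from their own months in other measures too. Over all tested loci, with values centred per locus, their mean correlation with the other trees of the month was -0.114 and -0.020, against 0.038 to 0.145 in the other 6 trees. Ribosomal RNA, represented by 9 loci, took 14.7% of the linear sum in July tree 4 and 1.98 to 5.87% in the other April and July trees. Its part in the results was not tested. With both trees left out, 1331 loci were DEGs, 602 higher and 729 lower, and 408 of the 457 were among them.

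**Figure D5:**
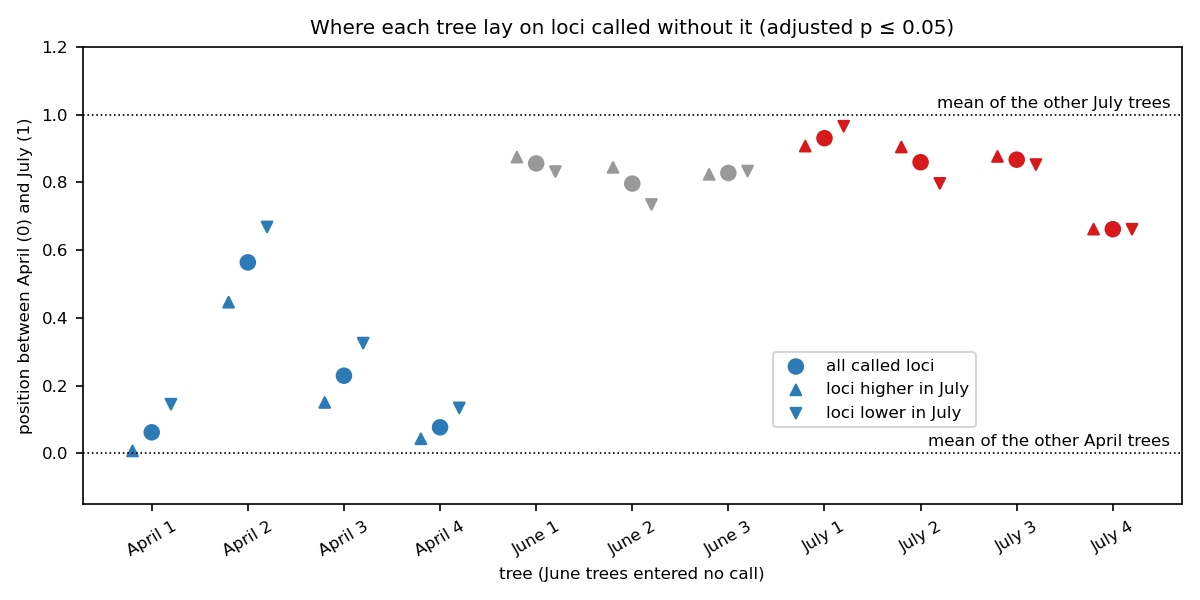
Position of each tree (horizontal axis) between the April mean, 0, and the July mean, 1, of the other April and July trees on loci called without it at an adjusted p of 0.05; circles use all called loci and triangles those higher or lower in July, and the grey June trees entered no call. The July trees lie between 0.662 and 0.931, and the April trees between 0.062 and 0.564, with April tree 2 far above the other April trees.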

How the data were processed

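The authors deposited log2 values, the rlog of DESeq2, made from paired-end reads that were checked and trimmed (FastQC 0.11.5, Skewer), cleared of ribosomal reads (riboPicker) and aligned by STAR 2.5.3a to CorkOak1.0. Homologs are the authors' best BlastP hits in Arabidopsis, cut here at the first dot. All 11 columns were mapped to trees by their labels. The 9598 loci with a mean rlog under log2 of 10 were not tested. rlog values hold no read counts, so precision was taken from the spread between trees.

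In R 4.3.3, limma 3.58.1 fitted a mean per month to all 11 trees (trended prior, Benjamini-Hochberg adjustment) and tested on simulated data. Homologs were fitted as the log2 of their loci's summed linear values. Named loci were the 8 largest rises and falls with non-overlapping groups, up to 4 DEGs per list by mean rlog, and the highest-rlog locus of a list without a DEG. Values are not printed for every locus of the last kind. Others were named after their values were seen. The members and lists were chosen with earlier results of these data known. The list names and roles of Arabidopsis genes are general knowledge, except the suberin and birch lists, which are from the study's supplement. Alternatives changed the minimum level, pseudocount (1), normalization, variance prior, tree weights, thresholds, months fitted, replicate block and trees. No sequence is printed, since no sequence was used here. Python 3.11.15 with matplotlib 3.10.9 drew the figures.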

Additional observations from a re-analysis of the deposited data

Results flagged for a closer look

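In 20 of 184 groups of 4 trees, 1 tree lay far from the other 3 by Dixon's criterion, where chance gives about 1 in 20 groups. Among loci that rose, April tree 1 stood at an rlog of 9.33 in LOC112001532 (SBH2 homolog) against 5.02 to 5.66 in the other April trees. LOC112025119 (HSP70B) was at 7.225 in April tree 3 and at 12.38 in July tree 1, each apart from the rest of its month. April tree 2 was the high tree in LOC112039463 (HSP101, 13.76) and LOC111992131 (HSP90.4, 13.37). Among loci that fell, July tree 4 was the high tree in LOC111993237 (7.646) and LOC111990452 (7.739), July tree 1 in LOC112034950 (TIP4;1, 7.308) and April tree 2 in LOC112004379 (8.856), while April tree 3 was low in LOC111985946 (PRX52, 11.28). In loci with no call, July tree 1 was low in LOC112019461 (EXPA8, 14.43) and high in LOC112002930 (XCP1, 7.817), and July tree 4 was low in LOC111999780 (MCM2, 9.958).

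For whole lists, as the mean rlog of a tree minus the April mean, July tree 2 stood apart for plastid fatty acid synthesis (-0.0458 against -0.236 to -0.209) and for cytosolic ribosomal proteins (-0.1354), July tree 4 for polycomb and trithorax (-0.299) and July tree 1 for antioxidant enzymes (-0.2342). In April, tree 3 stood apart for sterol and triterpene (-0.3296), tree 4 for heat shock factors (0.04449) and tree 2 for light-harvesting proteins (0.1037).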

How the results depend on the processing

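The count of 457 DEGs (288 higher, 169 lower) was 1272 (625 and 647) with limma's arrayWeights, which gave April tree 2 a weight of 0.26 and July tree 4 one of 0.397. It was 231 (151 and 80) when only the April and July trees were fitted, 993 (578 and 415) at an adjusted p of at most 0.05 and 755 (with 326 lower) without a minimum log2FC. Leaving out 1 tree gave 195 to 973 DEGs, 133 to 460 higher and 62 to 513 lower, the lowest total without April tree 4 and the highest without April tree 2. With April tree 2 and July tree 4 both left out, a choice made after seeing the data, it was 1331 (602 and 729). The 345 homologs (219 and 126) became 709 (421 and 288) with arrayWeights, 531 (329 and 202) at an adjusted p of at most 0.05, 779 (432 and 347) without a minimum log2FC and 724 (425 and 299) without both trees. Fitting only April and July trees gave 83 lower. Leaving out 1 tree gave 188 to 555 homologs, 124 to 336 higher and 64 to 219 lower.

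Replicate numbers stood for different trees in each month. The deviations of same-numbered April and July trees correlated at 0.043, 0.069, 0.012 and 0.087. Those of differently numbered trees correlated at -0.122 to 0.058. With the number as a replicate block there were 212 DEGs (139 and 73). With the block and only the April and July trees, added after seeing the data, limma called 0 DEGs (0 and 0), with 5734 loci at an unadjusted p under 0.05, and 100 homologs (71 and 29).

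Other minimum levels, normalizations, pseudocount and variance priors kept both totals within 1.5 times, though without a minimum the medians of some lists moved toward 0. Of 43 named DEGs none reversed under any alternative, and 18 kept the call under all 21 planned ones, among them 9 heat shock protein loci. April tree 4 left out ended 23 of the 43 calls and April tree 2 left out ended 5. Depth is unknown, loci with few reads are understated by rlog, and with different trees in each month a difference between months cannot be told from one between trees.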

Other observations

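Neighbours were taken from the running gene numbers that the deposited table gives beside the locus names, with no coordinates used. Of 536 tested next neighbours of DEGs, 18 were DEGs in the same direction (3.36%) and 2 in the other, beside 1.28% higher and 0.754% lower among all loci. The 18 formed 9 pairs, of which 3 joined copies of the same homolog, namely NRX1 (LOC112029598 and LOC112029599), HSP90.1 (LOC112015652 and LOC112015648) and a glycosyltransferase (AT5G12890, LOC112002897 and LOC112002901).

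Some homologs passed as a sum without a DEG locus. The SBH1 homolog AT1G69640 had the lowest log2FC of any homolog DEG, -4.13 (SE 0.84, limma BH adjusted p = 0.00758), although July tree 1, at 7.64, was within the April range. The peroxidase homolog AT2G41480 was at 10.34, 11.14, 8.23 and 9.77 in April and 6.14, 5.40, 7.23 and 7.07 in July (log2FC -3.41, SE 0.63, limma BH adjusted p = 0.00513). The dirigent homolog AT2G21100 summed to 5.93, 6.44, 6.40 and 6.10 in April and 7.13, 9.60, 10.61 and 10.38 in July, and to 10.61, 10.71 and 10.72 in the June trees.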
